A study of Mus musculus with 36 samples.

Results

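The response of visceral white adipose tissue (visWAT) to a high-fat diet (HFD) was described in mice that lack Mlkl in their adipocytes (Mlkl Adi-KO). The comparison took 9 of the 36 libraries of the series, 5 from Mlkl Adi-KO mice on HFD (mice 151, 152, 153, 156 and 157) and 4 from Mlkl Adi-KO mice on a normal chow diet (NCD; mice 166, 179, 197 and 199), chosen by genotype, tissue and diet in the sample labels. In short, macrophage and lysosome genes, cell cycle genes, ribosomal protein genes and collagens were higher on HFD, while genes of fatty acid synthesis, branched-chain amino acid breakdown, the tricarboxylic acid (TCA) cycle and insulin signaling were lower. The size of this response differed between the HFD-fed mice, with mice 156 and 157 nearer to the NCD group than mice 151, 152 and 153.

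All mice were C57BL/6J males, 16 weeks of age when feeding began and fed for 16 weeks. Mlkl Adi-KO mice carry floxed Mlkl alleles and an Adipo-Cre transgene, which acts in mature adipocytes, and both diet groups described here carry both. Their wild-type (WT) littermates, used below as a reference for the spread, carry the floxed alleles without Cre. RNA came from whole epididymal fat, named visWAT by the study, with poly(A) selection, 1 library per mouse and no pooling. Each mouse is 1 replicate, so p-values measure the spread between mice.

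White adipocytes store triglyceride, take up glucose under insulin and release hormones such as leptin and adiponectin. During diet-induced obesity, adipocytes enlarge and some die, and macrophages gather around dying cells, take up their lipid and acquire a lysosome-rich state marked by Trem2, Gpnmb and Cd9. MLKL is the pseudokinase that carries out necroptosis, a lytic cell death downstream of the kinases RIPK1 and RIPK3.

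Mlkl (ENSMUSG00000012519, chr8:112038429-112064809 of GRCm39, minus strand) was examined first, since it checks the genotype of each library. It was 2.39, 2.68, 2.72, 2.55 and 2.32 FPKM in HFD-fed mice 151, 152, 153, 156 and 157, and 2.20, 1.96, 2.49 and 2.10 FPKM in NCD-fed mice 166, 179, 197 and 199. This order of mice is kept for all values below. FPKM are fragments per kilobase of gene length, scaled by the authors to a library size. All 9 libraries were below the 5 WT mice on HFD, at 4.58 to 6.28 FPKM. The WT mice on NCD were at 3.99 ± 1.23 FPKM (SD, n = 4), and their mouse 182 was at a level among those of Mlkl Adi-KO mice. The check is therefore weaker for the NCD libraries. The 2 diet groups overlapped, and the difference did not pass the test (log2 difference 0.15 ± 0.06 (SE), adjusted p = 0.0819, limma with Benjamini-Hochberg adjustment). With 1 mouse left out, the adjusted p of the same test ranged from 0.0428 to 0.205, so the side of the threshold depended on the mice included. Transcripts of Mlkl from cells other than adipocytes remain in whole tissue, and 139 to 226 reads lie behind each value.

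Reads on genes ranged from 21967199 to 26523339 in the 9 libraries. Mitochondrial transcripts took 2.80 to 3.86% of the reads on HFD and 5.05 to 5.99% on NCD, and the 10 most abundant genes took 7.87 to 11.3% on HFD and 14.5 to 16.2% on NCD. Adipoq, the adiponectin gene and a defining adipocyte marker, was high in every library, at 891 to 1994 FPKM on HFD and 1368 to 1995 FPKM on NCD. Libraries HFD 156 and NCD 197 held transcripts typical of another organ. Genes at least 20-fold higher in liver than in visWAT took 1.45% of all FPKM in HFD 156, against 0.215 to 0.255% in the other HFD-fed mice and 0.259 to 0.368% in NCD-fed mice. Seminal vesicle genes summed to 96.6 FPKM in NCD 197 and to at most 0.262 FPKM in the other libraries. Epididymis genes summed to 4.27, 14.4 and 2.99 FPKM in NCD 166, 179 and 197, and to at most 0.164 FPKM in the other libraries. These 3 libraries are all on NCD, so this difference runs with diet. Counts of called genes and the calls of named genes are therefore also given without mouse 156. The SDs between mice and the test of spread below include it and were not repeated without it. In whole tissue, fewer cells of a type and less RNA per cell cannot be told apart.

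**Figure D1:**
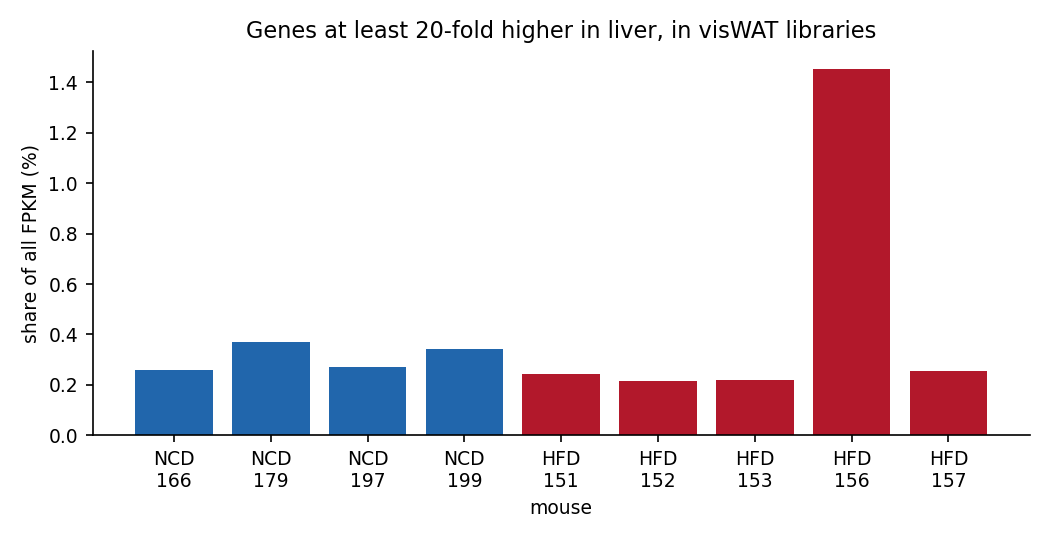
Share of all FPKM (%) taken in each of the 9 Mlkl Adi-KO visWAT libraries by the 572 genes that are at least 20-fold higher in liver, with NCD bars in blue and HFD bars in red. Library HFD 156 stands at 1.45%, and the other 8 lie between 0.215 and 0.368%.

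Of 14026 genes tested, 6125 differed between the diets (43.7%, adjusted p under 0.05, limma with Benjamini-Hochberg adjustment), 3272 higher on HFD (23.3%) and 2853 lower (20.3%). The median difference over all genes was 0.01 on the log2(FPKM + 1) scale, on which all log2 differences below are given as HFD minus NCD. A difference of at least 2-fold on this scale was passed by 525 of the higher genes and 180 of the lower genes. In 2814 genes every HFD-fed mouse was above every NCD-fed mouse (20.1% of the genes tested), and in 2565 every HFD-fed mouse was below (18.3%). Among the 6125 genes that passed the test, 989 had overlapping groups (16.1%). Without mouse 156 the counts were 3344 higher and 3002 lower. Gene lists are described by how many of their tested members passed the same test, to be read against these shares, and by their median log2 difference, to be read against 0.01.

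**Figure D2:**
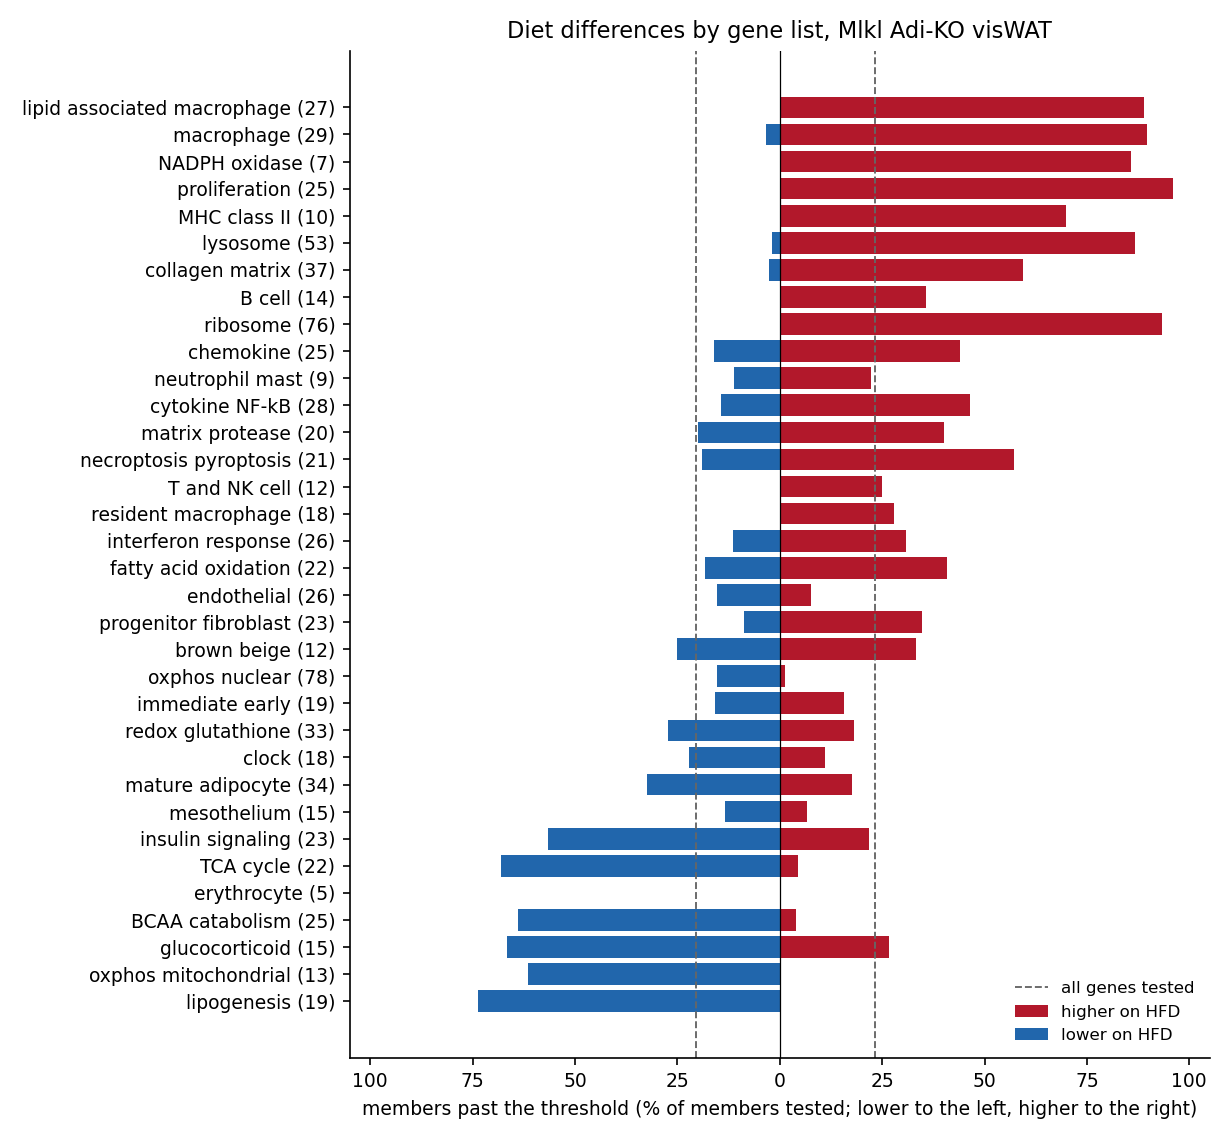
Percentage of the tested members of each gene list (number tested in brackets) that passed the test, with genes higher on HFD to the right and genes lower on HFD to the left of 0. Dashed lines mark the shares over all genes tested, 23.3% higher and 20.3% lower. Macrophage, proliferation, lysosome and ribosome lists extend far to the right, and lipogenesis, TCA cycle, BCAA catabolism and glucocorticoid lists to the left.

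Adipocyte hormones moved in opposite directions. Leptin (Lep), the hormone that signals fat stores, was 568, 654, 606, 364 and 653 FPKM on HFD and 225, 159, 153 and 184 FPKM on NCD. Every HFD-fed mouse was above every NCD-fed mouse, with mouse 156 the lowest of the HFD group (3.16-fold higher mean, log2 difference 1.64 ± 0.19 (SE), adjusted p = 0.000452). Complement factor D (Cfd, adipsin), secreted by mature adipocytes, was 1907, 354, 308, 3853 and 2799 FPKM on HFD and 12010.2, 10664, 10783 and 12955 FPKM on NCD. It was lower in all HFD-fed mice, but their values spanned 12.5-fold, from 308 to 3853 FPKM (log2 difference −3.30 ± 0.76 (SE), adjusted p = 0.00762). Resistin (Retn) was 284, 117, 122, 519 and 690.5 FPKM on HFD and 851, 708, 671 and 783 FPKM on NCD. It fell (log2 difference −1.47 ± 0.52 (SE), adjusted p = 0.0464), but mouse 157 lay within the NCD range, and the adjusted p reached 0.101 with NCD 166 left out. The call was also lost without any 1 of the other NCD-fed mice or of HFD mice 151, 152 and 153, and with edgeR and DESeq2. Adiponectin (Adipoq) was 1828, 1018, 891, 1994 and 1947 FPKM on HFD and 1767, 1368, 1568 and 1995 FPKM on NCD. Its groups overlapped, with mice 152 and 153 the lowest of all 9 and the other 3 HFD-fed mice within the NCD range (log2 difference −0.19 ± 0.27 (SE), adjusted p = 0.596).

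Sfrp5, Mest, Angptl4 and Trarg1 rose. Sfrp5, a secreted Wnt antagonist, was 416, 197, 159, 316 and 272 FPKM on HFD and 15.9, 15.3, 30.8 and 34.1 FPKM on NCD, a mean 11.3-fold higher (log2 difference 3.46 ± 0.33 (SE), adjusted p = 0.000227). Mest, an imprinted gene that tracks adipocyte enlargement, was 72.8, 79.1, 77.3, 59.8 and 82.5 FPKM on HFD and 13.2, 12.0, 17.7 and 25.5 FPKM on NCD (log2 difference 2.11 ± 0.199 (SE), adjusted p = 0.000219). The 5 HFD-fed mice lay close together for Mest, with an SD of 0.18 on the log2 scale against 0.46 between the NCD-fed mice. Angptl4, an inhibitor of lipoprotein lipase, rose from 121 ± 19.4 FPKM (SD, n = 4) to 196 ± 14.7 FPKM (SD, n = 5). Trarg1, a regulator of glucose transporter traffic, rose from 88.4 ± 5.33 to 122 ± 21.1 FPKM (SD, n = 4 and 5). The diet groups did not overlap for these genes.

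Of 34 mature adipocyte genes tested, 6 were higher and 11 lower on HFD, with a median log2 difference of −0.30. Adrb3, the adipocyte receptor for noradrenaline, was 109.6, 57.5, 36.0, 186 and 161 FPKM on HFD and 297, 259, 291 and 294 FPKM on NCD. All HFD-fed mice were lower, mice 152 and 153 most of all (log2 difference −1.61 ± 0.44 (SE), adjusted p = 0.0167). Pparg, the master factor of fat cell differentiation, was 42.2, 23.9, 29.4, 38.0 and 55.7 FPKM on HFD and 89.1, 56.5, 58.2 and 56.8 FPKM on NCD. It fell (log2 difference −0.80 ± 0.24 (SE), adjusted p = 0.0242), and the adjusted p reached 0.0688 with NCD 166 left out and was also over the threshold without HFD 153. Pnpla2, which encodes the triglyceride lipase ATGL, was 422 to 805 FPKM on HFD and 552 to 761 FPKM on NCD, overlapping groups that did not pass the test (log2 difference −0.07 ± 0.22 (SE), adjusted p = 0.823). Npr3, the clearance receptor for natriuretic peptides, did not pass it either (log2 difference 0.33 ± 0.16 (SE), adjusted p = 0.129). Without 1 of mice NCD 166, NCD 179 or HFD 153, 7 instead of 11 members of this list were lower.

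**Figure D3:**
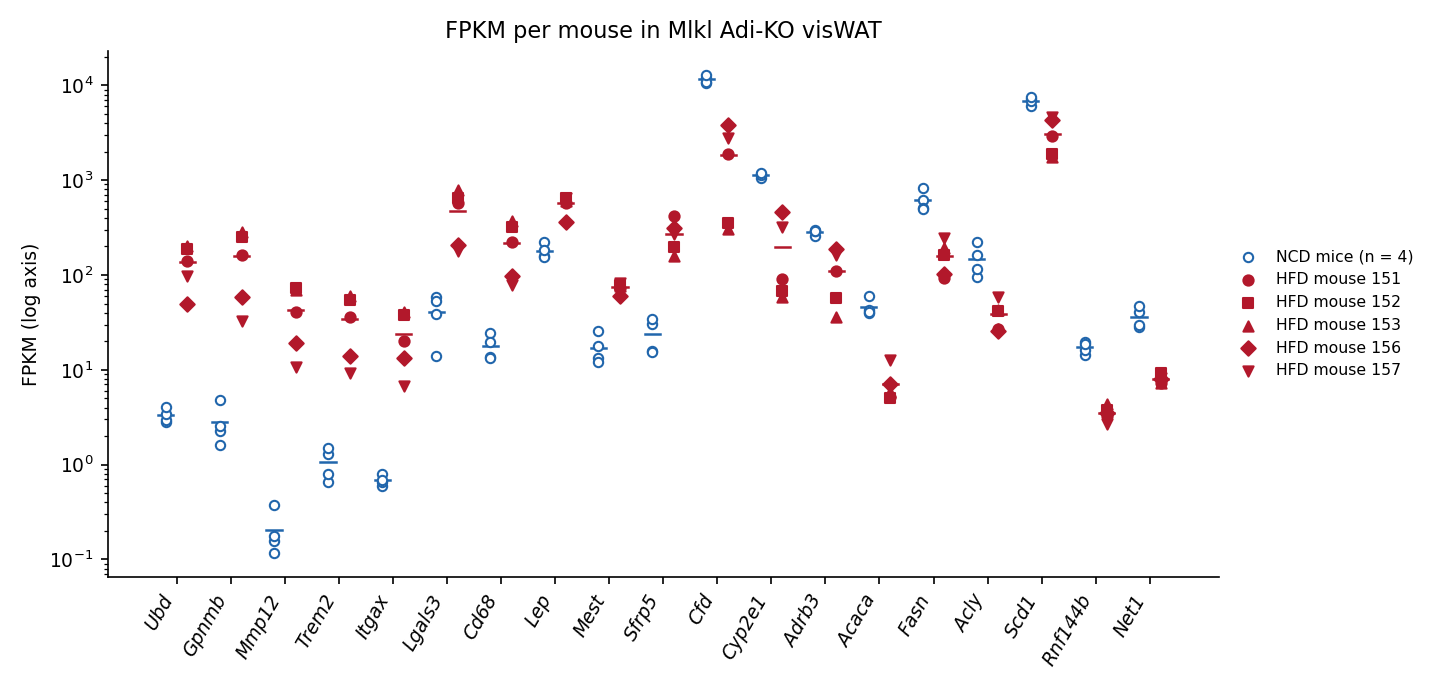
FPKM per mouse (log axis) of 19 genes in Mlkl Adi-KO visWAT, with open blue circles for the 4 NCD-fed mice, a red symbol for each of the 5 HFD-fed mice and a line at each group's mean. The groups do not overlap for any of these genes. Mice 156 and 157 are the HFD-fed mice nearest to NCD for Gpnmb, Trem2, Itgax and Cfd, while for Rnf144b and Net1 all 5 HFD-fed mice lie together.

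Genes of fatty acid synthesis were lower on HFD. Of 19 lipogenesis genes tested, 14 fell and none rose, with a median log2 difference of −1.13. Acetyl-CoA carboxylase 1 (Acaca), which makes malonyl-CoA in the committed step, was 5.19, 5.08, 5.82, 7.003 and 12.5 FPKM on HFD and 59.5, 42.3, 39.3 and 40.8 FPKM on NCD. All HFD-fed mice were far below the NCD group, mouse 157 the least (6.38-fold lower mean, log2 difference −2.57 ± 0.24 (SE), adjusted p = 0.00021). Fatty acid synthase (Fasn) was 92.0, 163, 195, 102 and 243 FPKM on HFD and 817, 624, 505 and 499 FPKM on NCD. Again the groups did not overlap (log2 difference −2.002 ± 0.30 (SE), adjusted p = 0.00109). ATP citrate lyase (Acly), which supplies cytosolic acetyl-CoA, was 26.7, 41.5, 43.2, 25.6 and 58.0 FPKM on HFD and 223, 163, 95.2 and 115 FPKM on NCD (log2 difference −1.89 ± 0.30 (SE), adjusted p = 0.00142). Its NCD-fed mice spanned a wider range than its HFD-fed mice on the FPKM scale, and mouse 157 was again the highest of the HFD group.

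Among the enzymes that lengthen and desaturate fatty acids, some members fell and others did not pass the test. Elovl6, an elongase, was 1.35, 2.72, 2.42, 1.24 and 3.49 FPKM on HFD and 12.2, 7.93, 8.97 and 9.80 FPKM on NCD (log2 difference −1.76 ± 0.22 (SE), adjusted p = 0.000493). Scd1, the stearoyl-CoA desaturase, was 2899, 1896, 1752, 4319.8 and 4581 FPKM on HFD and 7162, 6089, 6816 and 7551 FPKM on NCD (log2 difference −1.27 ± 0.30 (SE), adjusted p = 0.00897). For Scd1, mice 152 and 153 were the lowest and mice 156 and 157 the nearest to NCD. Mlxipl encodes the carbohydrate response factor ChREBP and was 8.35, 5.58, 6.45, 8.96 and 9.89 FPKM on HFD and 29.0, 20.8, 15.6 and 18.7 FPKM on NCD (log2 difference −1.31 ± 0.196 (SE), adjusted p = 0.0011). Thrsp, a lipogenic accessory protein, fell from 519 ± 185 FPKM (SD, n = 4) to 229 ± 116 FPKM (SD, n = 5). Its groups overlapped, and the adjusted p of 0.0328 reached 0.0921 with NCD 166 left out, the call being lost as well without NCD 179, NCD 199 or HFD 153. The other members tested and not past the threshold were Mvd, Fads2, Scd2, Acsl1 and Elovl5, named after their values were seen.

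The promoters of these genes are shown because lipogenic enzymes share the sterol regulatory element bound by SREBP factors. The motif TCACNCCAC, a common form of this element, was searched on both strands. The windows were the 250 bases before the start of the GENCODE canonical transcript, for 13986 of the 14026 genes tested. The motif was present in 4 of the 19 lipogenesis genes (21.1%) and in 149 of the 13986 (1.07%). It was present in 1.44% of all genes lower on HFD and in 1.13% of those higher. Windows of 3 of these genes, from GRCm39 and written 5′ to 3′ on the strand of the gene, follow with the motif in capitals. A match describes letters only and shows no binding. The Acaca window lies at chr11:84063698-84063947, plus strand, Mlxipl at chr5:135135505-135135754, plus strand and Acss2, an acetyl-CoA synthetase with 2 matches, at chr2:155359618-155359867, plus strand. The Acaca and Mlxipl windows lie inside their genes, which start at chr11:84020498 and chr5:135118744. The Acaca match adjoins a run of CA repeats.
Acaca: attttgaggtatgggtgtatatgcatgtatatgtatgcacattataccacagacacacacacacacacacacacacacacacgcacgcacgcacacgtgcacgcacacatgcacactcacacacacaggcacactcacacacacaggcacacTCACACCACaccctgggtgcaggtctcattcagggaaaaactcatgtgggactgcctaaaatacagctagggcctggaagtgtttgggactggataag
Mlxipl: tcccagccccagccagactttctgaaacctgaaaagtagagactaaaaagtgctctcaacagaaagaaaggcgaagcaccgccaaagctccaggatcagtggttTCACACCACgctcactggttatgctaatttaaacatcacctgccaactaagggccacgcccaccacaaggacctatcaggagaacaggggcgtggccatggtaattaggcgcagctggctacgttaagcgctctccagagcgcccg
Acss2: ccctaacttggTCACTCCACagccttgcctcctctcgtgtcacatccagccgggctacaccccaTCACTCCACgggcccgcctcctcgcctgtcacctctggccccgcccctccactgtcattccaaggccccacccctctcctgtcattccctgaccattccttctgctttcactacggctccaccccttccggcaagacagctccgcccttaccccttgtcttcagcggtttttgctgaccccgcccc

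Insulin signaling genes were mostly lower. Of 23 tested, 13 fell and 5 rose, with a median log2 difference of −0.32. The insulin receptor (Insr) was 4.04, 3.49, 3.31, 4.92 and 4.62 FPKM on HFD and 7.63, 6.92, 7.85 and 7.58 FPKM on NCD, without overlap (log2 difference −0.75 ± 0.10 (SE), adjusted p = 0.000655). Its substrate Irs1 was 0.263, 0.326, 0.351, 0.308 and 0.436 FPKM on HFD and 1.43, 1.07, 1.45 and 0.910 FPKM on NCD. This was a 3.61-fold lower mean, which the added pseudocount of 1 reduces to a log2 difference of −0.72 (adjusted p = 0.000573). Pik3r1, the regulatory subunit of phosphoinositide 3-kinase, was 8.10, 6.43, 7.86, 6.76 and 8.78 FPKM on HFD and 22.7, 18.5, 24.1 and 20.6 FPKM on NCD (log2 difference −1.39 ± 0.10 (SE), adjusted p = 0.000121). The HFD-fed mice lay close together here, and the group means differed 2.84-fold.

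Irs2 fell from 11.9 ± 1.59 to 4.88 ± 1.18 FPKM and Pde3b, the phosphodiesterase that mediates the antilipolytic action of insulin, from 38.1 ± 2.73 to 16.9 ± 4.03 FPKM (SD, n = 4 and 5), both without overlap. The insulin-responsive glucose transporter Slc2a4 was 35.9, 18.5, 19.4, 52.1 and 49.9 FPKM on HFD and 69.3, 56.1, 61.4 and 68.0 FPKM on NCD. All HFD-fed mice were below the NCD group (log2 difference −0.96 ± 0.32 (SE), adjusted p = 0.0343), with mice 156 and 157 nearest to it, and the adjusted p reached 0.0804 with NCD 166 left out. Leaving out any other NCD-fed mouse, or HFD mouse 151, 152 or 153, also ended this call. Among the genes that rose were Phlda1 (from 2.40 ± 0.331 to 4.99 ± 1.09 FPKM) and Ptpn1, a phosphatase of the insulin receptor (from 7.03 ± 0.743 to 10.1 ± 2.04 FPKM, adjusted p = 0.0215, up to 0.0628 with NCD 197 or NCD 199 left out). The number of higher members was 2 to 5 with 1 mouse left out.

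Enzymes that break down branched-chain amino acids fell. Of 25 tested, 16 were lower and 1 higher, with a median log2 difference of −0.48. Isovaleryl-CoA dehydrogenase (Ivd) was 21.9, 15.3, 14.7, 32.9 and 29.7 FPKM on HFD and 52.6, 52.2, 49.8 and 57.4 FPKM on NCD (log2 difference −1.25 ± 0.23 (SE), adjusted p = 0.00295). Aldh6a1, of the valine pathway, was 32.8, 27.0, 23.4, 47.5 and 39.5 FPKM on HFD and 80.6, 78.1, 74.5 and 81.6 FPKM on NCD (log2 difference −1.23 ± 0.18 (SE), adjusted p = 0.00108). For both, mice 152 and 153 were the lowest and no HFD-fed mouse reached the NCD range. Bcat2, the mitochondrial aminotransferase of the first step, was 29.5, 21.3, 23.0, 38.1 and 37.4 FPKM on HFD and 57.3, 58.7, 54.6 and 62.6 FPKM on NCD (log2 difference −0.98 ± 0.17 (SE), adjusted p = 0.00238). Bckdhb, a subunit of the branched-chain ketoacid dehydrogenase, was 58.9, 37.4, 37.3, 60.3 and 64.6 FPKM on HFD and 54.9, 50.3, 51.8 and 55.9 FPKM on NCD, overlapping groups without a difference past the test (log2 difference −0.08 ± 0.18 (SE), adjusted p = 0.738). In the WT mice the same comparison gave a log2 difference of −1.003, or −0.95 without WT NCD mice 182 and 183, and the difference between the genotypes did not pass the adjusted test (0.92 ± 0.27 (SE), adjusted p = 0.317, limma interaction term).

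The TCA cycle list gave 15 lower and 1 higher of 22 genes tested, with a median log2 difference of −0.33. Pdha1, a subunit of pyruvate dehydrogenase, was 21.5, 23.8, 22.8, 25.2 and 31.0 FPKM on HFD and 60.6, 51.0, 52.2 and 48.4 FPKM on NCD (log2 difference −1.07 ± 0.11 (SE), adjusted p = 0.000288). Pdhb, its partner, fell from 53.3 ± 10.5 to 29.5 ± 4.84 FPKM and Suclg2, a succinyl-CoA ligase subunit, from 12.8 ± 0.637 to 7.02 ± 1.47 FPKM (SD, n = 4 and 5). None of these groups overlapped. Idh3a was the member that rose, from 30.8 ± 2.61 to 38.3 ± 4.68 FPKM (adjusted p = 0.0312, up to 0.0919 with NCD 179, NCD 197 or HFD 156 left out). Without NCD 179, NCD 197 or HFD 156 no member was higher.

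Fatty acid oxidation genes gave 9 higher (40.9%) and 4 lower (18.2%) of 22 tested, against 23.3% and 20.3% over all genes. Their median log2 difference was 0.08. Cpt1a, which admits long-chain fatty acids to mitochondria, was 13.9, 19.1, 19.5, 12.6 and 12.7 FPKM on HFD and 8.22, 8.48, 9.32 and 9.78 FPKM on NCD (log2 difference 0.71 ± 0.14 (SE), adjusted p = 0.00402). The dehydrogenase Acadl rose from 93.8 ± 5.29 to 124 ± 9.44 FPKM and the thiolase Acaa2 from 75.8 ± 6.54 to 104 ± 11.2 FPKM (SD, n = 4 and 5). Acot2, a mitochondrial thioesterase, fell from 9.62 ± 0.850 to 5.999 ± 0.864 FPKM, and the receptor Ppara from 0.733 ± 0.115 to 0.376 ± 0.0874 FPKM. When all 4 visWAT groups shared 1 estimate of the spread, Acadl, Acaa2, Hadha and Ppara no longer passed the test.

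Of 78 nuclear oxidative phosphorylation genes tested, 12 were lower and 1 higher, both below the shares over all genes, with a median log2 difference of −0.08. The count of lower genes depended on scaling, with 22 lower and 3 higher when FPKM were rescaled to TPM, which sum to a fixed total in each library, and it was 6 without NCD 166. Sdha, the flavoprotein of complex II, was 56.1, 61.8, 64.7, 65.4 and 65.8 FPKM on HFD and 96.0, 108, 106 and 111 FPKM on NCD (log2 difference −0.73 ± 0.07 (SE), adjusted p = 0.000247). Ndufs1, the largest core subunit of complex I, was 7.73, 7.28, 8.09, 9.03 and 8.74 FPKM on HFD and 12.9, 12.4, 11.7 and 11.6 FPKM on NCD (log2 difference −0.52 ± 0.07 (SE), adjusted p = 0.000657), and Uqcrc2 of complex III fell from 53.3 ± 2.94 to 37.0 ± 3.34 FPKM. Cox5a of complex IV was 25.6 to 32.8 FPKM on HFD and 26.6 to 32.3 FPKM on NCD, with overlap (log2 difference −0.07 ± 0.08 (SE), adjusted p = 0.504). Cox7a1, an isoform of heart and brown fat, rose from 2.86 ± 0.522 to 6.48 ± 1.06 FPKM (log2 difference 0.95 ± 0.12 (SE), adjusted p = 0.000587).

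Of 13 mitochondrially encoded genes, 8 were lower and none higher, with a median log2 difference of −0.74. mt-Nd5 was 732, 1016, 965, 1153 and 1079 FPKM on HFD and 2163, 2078, 2153 and 2548 FPKM on NCD (log2 difference −1.19 ± 0.14 (SE), adjusted p = 0.000477). The groups were well apart. mt-Nd6 fell from 3772 ± 665 to 1897 ± 255 FPKM and mt-Co2 from 104 ± 27.3 to 52.6 ± 7.63 FPKM (SD, n = 4 and 5). mt-Nd1 fell less, from 4176 ± 457 to 3221 ± 336 FPKM with overlapping groups (adjusted p = 0.0373, and up to 0.0925 with NCD 199 left out, the call being lost in 7 of the 9 settings without 1 mouse). Mitochondrial transcripts can carry poly(A) tails of differing length, and the part of selection in these values was not tested.

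Of 21 brown and beige fat genes listed, 12 passed the filter on low values (a mean of at least 0.5 FPKM over the 9 libraries). Of these, 4 were higher (33.3%) and 3 lower (25%) on HFD, against 23.3% and 20.3% over all genes. Their median log2 difference was −0.05. Ucp1, the uncoupling protein, was 0.021 to 0.254 FPKM on HFD and 0 to 0.021 FPKM on NCD, and Ppargc1a was 0.183 to 0.314 FPKM on HFD and 0.602 to 1.01 FPKM on NCD, too low for the test. Pdk4, which blocks pyruvate dehydrogenase, rose from 10.8 ± 1.16 to 21.2 ± 6.82 FPKM and Ebf2, a selector of the brown fat lineage, fell from 5.93 ± 1.30 to 2.34 ± 0.307 FPKM (SD, n = 4 and 5). Otop1, a proton channel, was 1.55, 3.93, 3.70, 0.691 and 1.29 FPKM on HFD and 0.178, 0.0853, 0.137 and 0.201 FPKM on NCD (log2 difference 1.37 ± 0.30 (SE), adjusted p = 0.00636). Cidea, a lipid droplet protein, was 1.83 to 4.13 FPKM on HFD and 4.24 to 6.28 FPKM on NCD (log2 difference −0.62 ± 0.18 (SE), adjusted p = 0.0212, and 0.0614 with NCD 179 left out).

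Of 33 redox genes tested, 6 rose (18.2%) and 9 fell (27.3%), near the shares over all genes of 23.3% and 20.3% (median log2 difference −0.19). Heme oxygenase 1 (Hmox1) was 51.1, 65.2, 80.7, 27.3 and 36.4 FPKM on HFD and 13.1, 14.2, 16.8 and 14.9 FPKM on NCD (log2 difference 1.66 ± 0.28 (SE), adjusted p = 0.00191). The extracellular superoxide dismutase Sod3 rose from 98.1 ± 10.9 to 226 ± 41.5 FPKM and Gsto1 from 21.1 ± 3.18 to 39.0 ± 5.07 FPKM (SD, n = 4 and 5). The glutathione transferase Gsta4, which clears lipid aldehydes, was 21.4, 12.7, 9.08, 30.3 and 28.2 FPKM on HFD and 50.1, 47.3, 43.5 and 55.5 FPKM on NCD (log2 difference −1.36 ± 0.32 (SE), adjusted p = 0.00855). It was lower in every HFD-fed mouse, least in mouse 156. Gsta3 (3.29-fold lower mean, log2 difference −1.82 ± 0.38 (SE), adjusted p = 0.00496) and the secreted peroxidase Gpx3 (2.0-fold lower mean, log2 difference −1.04 ± 0.18 (SE), adjusted p = 0.00197) fell as well. Reads shared between near-identical glutathione transferases make the level of a single family member uncertain.

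Macrophage genes were among the largest rises. Of 29 general macrophage genes tested, 26 were higher and 1 lower, with a median log2 difference of 1.71. Cd68, a lysosomal glycoprotein of macrophages, was 223, 322, 370, 96.8 and 78.6 FPKM on HFD and 13.7, 13.4, 24.4 and 19.5 FPKM on NCD (12.3-fold higher mean, log2 difference 3.33 ± 0.47 (SE), adjusted p = 0.000901). Adgre1, which encodes F4/80, was 41.7, 84.3, 93.3, 22.1 and 18.1 FPKM on HFD and 5.31, 6.05, 10.5 and 7.504 FPKM on NCD (7.07-fold, log2 difference 2.41 ± 0.49 (SE), adjusted p = 0.00426). In both, mice 152 and 153 were highest and mice 156 and 157 lowest of the HFD group, and no HFD-fed mouse fell to the NCD range. The cathepsin Ctss rose 10.9-fold and the signaling adaptor Tyrobp 7.72-fold by their means. Mertk, a receptor for dying cells, was the member that fell, from 8.86 ± 1.397 to 5.41 ± 1.04 FPKM (SD, n = 4 and 5, log2 difference −0.62 ± 0.13 (SE), adjusted p = 0.005).

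Of 27 genes of the lipid-associated macrophage state tested, 24 were higher and none lower, with a median log2 difference of 1.96. Gpnmb, a transmembrane glycoprotein of lipid-laden macrophages, was 164, 251, 281, 58.1 and 33.1 FPKM on HFD and 1.61, 2.24, 4.75 and 2.57 FPKM on NCD. Its mean was 56.3-fold higher (log2 difference 5.03 ± 0.62 (SE), adjusted p = 0.000519), and its HFD values spanned 8.51-fold. Trem2, the lipid receptor that drives this state, was 35.9, 54.2, 60.3, 14.0 and 9.20 FPKM on HFD and 0.654, 1.28, 1.49 and 0.789 FPKM on NCD (log2 difference 3.82 ± 0.52 (SE), adjusted p = 0.000776). Itgax, which encodes CD11c, was 20.2, 37.8, 41.1, 13.3 and 6.82 FPKM on HFD and 0.597, 0.651, 0.795 and 0.683 FPKM on NCD (log2 difference 3.63 ± 0.45 (SE), adjusted p = 0.00053). The order of the mice was the same in outline for all of these, with mice 152 and 153 highest, mouse 151 next, and mice 156 and 157 lowest but above every NCD-fed mouse.

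Mmp12, the macrophage elastase, was 40.7, 72.6, 69.9, 19.0 and 10.8 FPKM on HFD and 0.156, 0.117, 0.378 and 0.176 FPKM on NCD (log2 difference 4.86 ± 0.52 (SE), adjusted p = 0.000323). Osteopontin (Spp1) was 15.5, 45.4, 45.1, 6.03 and 4.46 FPKM on HFD and 0.204, 1.54, 1.53 and 0.230 FPKM on NCD (log2 difference 3.26 ± 0.68 (SE), adjusted p = 0.00502). Mice 156 and 157 held 4.46 to 6.03 FPKM of Spp1 against 45.1 to 45.4 FPKM in mice 152 and 153. Galectin 3 (Lgals3) was 569, 649, 784, 205 and 178 FPKM on HFD and 14.0, 38.5, 58.9 and 53.3 FPKM on NCD (log2 difference 3.44 ± 0.56 (SE), adjusted p = 0.00162), the proton pump subunit Atp6v0d2 28.3, 56.7, 63.1, 11.3 and 6.77 FPKM against 0.371, 0.180, 1.36 and 0.241 FPKM (log2 difference 4.10 ± 0.62 (SE), adjusted p = 0.00116), and the tetraspanin Cd9, which other cells of fat also express, rose from 16.0 ± 2.71 to 50.3 ± 22.2 FPKM (SD, n = 4 and 5).

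Of 53 lysosome genes tested, 46 were higher and 1 lower, with a median log2 difference of 0.72. The list shares 10 members with the macrophage lists above, and of the other 43, a count added after the values were seen, 37 were higher and 1 lower (median log2 difference 0.62). Ctsc, cathepsin C, was the member that fell, from 23.5 ± 4.43 to 13.2 ± 2.56 FPKM (SD, n = 4 and 5). Of 7 subunits and partners of the phagocyte NADPH oxidase tested, 6 were higher (median log2 difference 1.49). The catalytic subunit Cybb was 9.14, 17.8, 19.8, 5.33 and 5.05 FPKM on HFD and 2.21, 2.54, 3.32 and 2.51 FPKM on NCD (log2 difference 1.58 ± 0.38 (SE), adjusted p = 0.00893), and its partner Cyba rose 4.62-fold by its mean (log2 difference 2.04 ± 0.33 (SE), adjusted p = 0.00152). In both lists mice 156 and 157 held the lowest HFD levels.

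Of 18 resident macrophage markers tested, 5 were higher (27.8%, near the 23.3% over all genes) and none lower. Their median log2 difference was 0.18. In 1 member that did not pass the test, every HFD-fed mouse was below every NCD-fed mouse. The folate receptor Folr2 was 13.2, 21.7, 20.6, 7.96 and 9.12 FPKM on HFD and 3.12, 3.6, 6.22 and 5.13 FPKM on NCD (log2 difference 1.43 ± 0.31 (SE), adjusted p = 0.00566), and the hyaluronan receptor Lyve1 was 14.0, 15.0, 11.2, 11.5 and 17.6 FPKM on HFD and 6.98, 9.76, 8.62 and 7.27 FPKM on NCD (log2 difference 0.69 ± 0.14 (SE), adjusted p = 0.00443). Fcna rose from 12.8 ± 2.51 to 31.0 ± 4.62 FPKM and the complement receptor Vsig4 from 0.718 ± 0.355 to 2.75 ± 1.22 FPKM (SD, n = 4 and 5). These groups did not overlap. Of 10 MHC class II genes, 7 were higher and none lower (median log2 difference 0.85). H2-Ab1 rose from 83.7 ± 22.5 to 163 ± 29.0 FPKM and the invariant chain Cd74 from 337 ± 86.5 to 631 ± 137 FPKM.

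Of 25 chemokines tested, 11 were higher and 4 lower, with a median log2 difference of 0.48. Ccl2 was 18.8, 19.0, 20.03, 6.94 and 9.93 FPKM on HFD and 3.91, 1.602, 2.09 and 2.15 FPKM on NCD (6.13-fold higher mean, log2 difference 2.15 ± 0.32 (SE), adjusted p = 0.00108). Ccl7 rose from 2.97 ± 1.43 to 13.9 ± 3.28 FPKM and Ccl9 from 15.9 ± 3.61 to 73.5 ± 34.7 FPKM (SD, n = 4 and 5). Cxcl9, induced by interferon gamma, fell from 12.2 ± 2.62 to 7.19 ± 1.83 FPKM with overlapping groups. Cxcr4, the receptor of CXCL12, was 5.79, 8.91, 9.39, 5.53 and 6.30 FPKM on HFD and 3.07, 3.37, 4.32 and 3.11 FPKM on NCD, without overlap (log2 difference 0.85 ± 0.16 (SE), adjusted p = 0.00299).

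Of 28 cytokine and NF-kappaB genes, 13 rose and 4 fell (median log2 difference 0.43). The interleukin 1 receptor antagonist Il1rn was 5.34, 10.1, 9.47, 1.27 and 1.45 FPKM on HFD and 0.0827, 0.0764, 0.292 and 0.0873 FPKM on NCD (log2 difference 2.22 ± 0.49 (SE), adjusted p = 0.00637), while Il1b and Il6 stayed below the filter in both groups. The acute phase gene Saa3 rose 9.55-fold by its mean (log2 difference 2.27 ± 0.36 (SE), adjusted p = 0.00133). Nos2 fell from 2.66 ± 0.146 to 1.67 ± 0.358 FPKM and Tnfaip3, an inhibitor of NF-kappaB signaling, from 2.55 ± 0.323 to 1.64 ± 0.311 FPKM (SD, n = 4 and 5), both without overlap. Of 26 interferon response genes, 8 rose (30.8%) and 3 fell (11.5%), against 23.3% and 20.3% over all genes. Their median log2 difference was 0.13. Oas1a rose from 1.61 ± 0.163 to 4.75 ± 1.54 FPKM and Bst2 from 41.7 ± 3.42 to 62.9 ± 5.80 FPKM.

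Genes of lytic cell death were examined because Mlkl belongs to them. Of 21 necroptosis and pyroptosis genes tested, 12 were higher and 4 lower, with a median log2 difference of 0.35. Caspase 1 (Casp1), the inflammasome protease, was 8.80, 10.1, 10.4, 4.73 and 4.51 FPKM on HFD and 2.44, 2.36, 2.66 and 2.38 FPKM on NCD (log2 difference 1.26 ± 0.23 (SE), adjusted p = 0.00286). Ninj1, which ruptures the plasma membrane late in lytic death, was 71.2, 69.9, 72.7, 52.3 and 60.9 FPKM on HFD and 26.3, 31.3, 33.8 and 30.6 FPKM on NCD (log2 difference 1.07 ± 0.11 (SE), adjusted p = 0.000322). Pycard, the inflammasome adaptor, rose from 0.701 ± 0.116 to 2.43 ± 1.07 FPKM (SD, n = 4 and 5). Ripk3, the kinase that phosphorylates MLKL and was named here after its values were seen, was 4.83, 5.81, 6.62, 4.01 and 3.41 FPKM on HFD and 1.96, 1.59, 3.04 and 2.79 FPKM on NCD (log2 difference 0.82 ± 0.19 (SE), adjusted p = 0.00692). Cflar, an inhibitor of caspase 8, fell from 6.44 ± 0.373 to 4.93 ± 0.124 FPKM and the ubiquitin ligase Birc2 from 7.27 ± 0.130 to 5.63 ± 0.820 FPKM. Several of these genes are also expressed by macrophages, whose markers rose in the same mice, and the part of that in these values was not tested.

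Lymphocyte and granulocyte markers gave smaller or uneven differences. Of 14 B cell genes tested, 5 were higher and none lower (median log2 difference 0.59). Cd79a, a B cell receptor subunit, was 1.55, 5.64, 2.07, 1.81 and 1.26 FPKM on HFD and 0.607, 0.648, 1.13 and 0.592 FPKM on NCD. Mouse 152 stood above all others, and the adjusted p of 0.0321 reached 0.0755 with NCD 166 left out, the call being lost also without NCD 179, NCD 199 or HFD 153. The B cell list mean was 1.61 above the NCD mean in mouse 152, on the log2 scale. In the other HFD-fed mice it was 0.30 to 0.43 above that mean, inside the range of the NCD-fed mice (−0.70 to 0.44). Ighm was 187, 369, 212, 275 and 399 FPKM on HFD and 186, 127, 117 and 71.3 FPKM on NCD (log2 difference 1.21 ± 0.31 (SE), adjusted p = 0.0114). Of 12 T and NK cell genes tested of 32 listed, 3 were higher (25%, near 23.3% over all genes) and none lower. Their median log2 difference was 0.21, and Cd3e and Cd8a were below the filter. Of 9 neutrophil and mast cell genes, 2 were higher (22.2%) and 1 lower (11.1%), against 23.3% and 20.3% over all genes (median log2 difference 0.45). S100a8, a neutrophil calcium-binding protein, rose from 1.59 ± 0.988 to 7.88 ± 2.42 FPKM (log2 difference 1.80 ± 0.26 (SE), adjusted p = 0.000924). Other neutrophil markers did not share this rise. S100a9 was 0.117 to 0.844 FPKM on HFD and 0 to 0.331 FPKM on NCD, with overlap. Like S100a9, the markers Ly6g, Retnlg, Ngp and Mpo were below the filter, so a change in neutrophils is not shown.

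Collagen and matrix genes rose. Of 37 tested, 22 were higher and 1 lower, with a median log2 difference of 0.60. Col1a1 was 73.8, 155, 134, 39.8 and 60.6 FPKM on HFD and 21.4, 28.4, 27.8 and 22.9 FPKM on NCD (log2 difference 1.68 ± 0.36 (SE), adjusted p = 0.00584). Mouse 156 was the lowest of the HFD group and mice 152 and 153 the highest. Col6a3, the subunit that is cleaved to endotrophin, was 11.7, 25.3, 26.5, 7.495 and 13.9 FPKM on HFD and 5.11, 6.02, 7.04 and 5.75 FPKM on NCD (log2 difference 1.23 ± 0.33 (SE), adjusted p = 0.014). Col6a2 rose from 26.8 ± 3.44 to 91.5 ± 23.7 FPKM and Col6a1 from 53.8 ± 6.99 to 173 ± 37.9 FPKM (SD, n = 4 and 5). The cross-linking enzyme Lox was 9.39 to 19.4 FPKM on HFD and 6.62 to 9.20 FPKM on NCD (log2 difference 0.74 ± 0.22 (SE), adjusted p = 0.0224, up to 0.0631 with NCD 166 or NCD 197 left out).

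Matrix proteases and their inhibitors gave 8 higher (40%) and 4 lower (20%) of 20 tested, against 23.3% and 20.3% over all genes. Their median log2 difference was 0.41. The protease inhibitor Timp1 was 13.2, 23.4, 21.0, 6.76 and 8.24 FPKM on HFD and 1.92, 2.38, 2.02 and 1.05 FPKM on NCD (log2 difference 2.33 ± 0.35 (SE), adjusted p = 0.00109). The membrane protease Adam8 was 31.5, 59.3, 66.6, 11.7 and 9.48 FPKM on HFD and 0.862, 1.07, 2.05 and 0.871 FPKM on NCD (log2 difference 3.70 ± 0.56 (SE), adjusted p = 0.0012). The gelatinase Mmp9 was 0.533, 0.495, 0.423, 1.44 and 0.352 FPKM on HFD and 4.03, 3.71, 12.2 and 6.94 FPKM on NCD (log2 difference −2.13 ± 0.31 (SE), adjusted p = 0.00094). Mmp9 thus fell while Mmp12 rose, and mouse 156 was the highest of the HFD group for Mmp9.

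Of 23 progenitor and fibroblast genes tested, 8 were higher and 2 lower (median log2 difference −0.04). Pi16, a marker of early progenitors, rose from 7.17 ± 1.31 to 13.4 ± 2.59 FPKM and Pdgfrb from 10.2 ± 0.760 to 18.1 ± 3.52 FPKM (SD, n = 4 and 5). Of 15 mesothelial genes, 1 was higher (6.67%) and 2 lower (13.3%), both below the shares over all genes (median log2 difference −0.31). Wt1 fell from 2.35 ± 0.166 to 1.47 ± 0.497 FPKM with overlapping groups. Of 26 endothelial and angiogenic genes, 2 were higher (7.69%) and 4 lower (15.4%), both below the shares over all genes (median log2 difference −0.02). Without mouse 156, 7 were lower. Angpt1, the ligand that stabilizes vessels through the TIE2 receptor, was 0.503, 0.363, 0.591, 0.528 and 0.496 FPKM on HFD and 3.38, 4.03, 4.18 and 3.21 FPKM on NCD. This was a 7.46-fold lower mean with little spread in either group (log2 difference −1.65 ± 0.08 (SE), adjusted p = 6.49e-05). Vegfa was 36.1, 18.4, 18.6, 47.2 and 33.3 FPKM on HFD and 66.4, 49.6, 70.3 and 73.3 FPKM on NCD (log2 difference −1.13 ± 0.28 (SE), adjusted p = 0.0103), and its receptor Flt1 fell from 6.72 ± 0.531 to 4.55 ± 0.819 FPKM.

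Cell cycle genes rose almost without exception, 24 of 25 tested and none lower, with a median log2 difference of 0.90. Stmn1, a microtubule regulator of dividing cells, was 17.0, 25.3, 28.3, 7.74 and 9.90 FPKM on HFD and 2.57, 3.96, 3.47 and 2.93 FPKM on NCD (log2 difference 1.998 ± 0.35 (SE), adjusted p = 0.00223). Cyclin B2 (Ccnb2) was 3.30, 4.70, 5.39, 1.39 and 2.26 FPKM on HFD and 0.239, 0.489, 0.806 and 0.496 FPKM on NCD (log2 difference 1.47 ± 0.27 (SE), adjusted p = 0.00294). Both were higher in every HFD-fed mouse and highest in mice 152 and 153. The list mean lay 0.37 above NCD in mouse 156, the lowest HFD-fed mouse, and 1.44 above it in mouse 153, the highest.

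Ribosomal protein genes rose in a narrower way. Of 76 tested, 71 were higher and none lower, with a median log2 difference of 0.49. Rpl32 was 304, 262, 280.2, 261 and 287 FPKM on HFD and 157, 166, 168 and 177 FPKM on NCD (log2 difference 0.74 ± 0.07 (SE), adjusted p = 0.000278). The list mean lay 0.40 to 0.60 above NCD in the 5 HFD-fed mice, mice 156 and 157 at 0.44 and 0.48. Ribosomal protein genes have many processed pseudogenes, so reads of single members such as Rpl17 and Rps27a, whose groups overlapped, are uncertain.

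Genes induced by glucocorticoids fell, 10 lower and 4 higher of 15 tested, with a median log2 difference of −0.56. Hsd11b1, which regenerates active glucocorticoid inside cells, was 17.3, 7.801, 7.37, 22.8 and 16.3 FPKM on HFD and 51.4, 42.9, 49.8 and 80.9 FPKM on NCD (log2 difference −1.98 ± 0.34 (SE), adjusted p = 0.00189). The transcription factor Zbtb16 was 1.93, 2.80, 2.51, 2.25 and 1.99 FPKM on HFD and 5.36, 10.03, 10.6 and 8.67 FPKM on NCD (log2 difference −1.52 ± 0.17 (SE), adjusted p = 0.000375). Both were lower in every HFD-fed mouse. Errfi1, a feedback inhibitor of EGF receptor signaling, fell from 21.2 ± 4.04 to 7.88 ± 3.36 FPKM and the kinase Sgk1 from 18.2 ± 5.38 to 9.88 ± 2.10 FPKM (SD, n = 4 and 5). Against the direction of the list, the cell cycle inhibitor Cdkn1a rose from 12.1 ± 2.44 to 27.0 ± 9.12 FPKM and the metallothionein Mt1 from 103 ± 16.1 to 169 ± 46.5 FPKM (adjusted p = 0.018, and 0.0553 with NCD 197 left out).

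Of 18 clock genes tested, 2 were higher (11.1%) and 4 lower (22.2%), against 23.3% and 20.3% over all genes (median log2 difference −0.19). Nr1d1, a repressor of the clock, was 34.9, 33.1, 32.6, 44.5 and 46.3 FPKM on HFD and 64.6, 49.7, 68.1 and 64.9 FPKM on NCD (log2 difference −0.68 ± 0.14 (SE), adjusted p = 0.00421). Wee1, a mitotic kinase with clock control, did not pass the test (log2 difference 0.21 ± 0.11 (SE), adjusted p = 0.138). The sources used here do not give the hour at which each mouse was killed, so a difference in hour and a difference in diet cannot be told apart for these genes. Immediate early genes gave 3 higher and 3 lower of 19 (15.8% each), both below the shares over all genes (median log2 difference −0.13). Their list means lay −0.34 to 0.33 from the NCD mean in HFD-fed mice and −0.48 to 0.48 in NCD-fed mice, a wider range on NCD. Atf3, a stress factor that macrophages also express, was 32.5, 52.0, 54.3, 15.7 and 10.6 FPKM on HFD and 1.61, 3.94, 2.47 and 6.68 FPKM on NCD (log2 difference 2.73 ± 0.51 (SE), adjusted p = 0.00309).

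Among the 10 largest rises and the 10 largest falls past the threshold without overlap, several genes belong to none of the lists above. Ubd, a ubiquitin-like modifier induced by inflammation, was 142, 190.1, 203, 49.7 and 98.6 FPKM on HFD and 2.82, 2.97, 3.38 and 4.04 FPKM on NCD (41.4-fold higher mean, log2 difference 4.85 ± 0.37 (SE), adjusted p = 0.000121). Vsig8 was 23.5, 20.8, 27.1, 7.04 and 5.40 FPKM on HFD and 0.0812, 0.0866, 0.454 and 0.0184 FPKM on NCD (log2 difference 3.71 ± 0.45 (SE), adjusted p = 0.000477). The cytochrome P450 Cyp2e1 was 89.6, 67.3, 58.3, 458 and 320.2 FPKM on HFD and 1059, 1149.8, 1145 and 1184 FPKM on NCD (log2 difference −3.02 ± 0.60 (SE), adjusted p = 0.00404). Its level in mouse 156 was the highest of the HFD group, and liver, whose transcripts that library holds, is rich in Cyp2e1, whose part here was not tested.

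Rnf144b, a ubiquitin ligase, was 3.26, 3.79, 4.37, 3.47 and 2.67 FPKM on HFD and 14.3, 16.3, 19.5 and 18.9 FPKM on NCD (log2 difference −2.02 ± 0.12 (SE), adjusted p = 9.65e-05). Net1, an exchange factor for RhoA, was 7.25, 9.35, 7.26, 8.09 and 8.14 FPKM on HFD and 28, 29.5, 41.1 and 46.7 FPKM on NCD (log2 difference −2.02 ± 0.15 (SE), adjusted p = 0.000121). Thrombomodulin (Thbd) was 20.2, 25.5, 16.0, 26.6 and 28.8 FPKM on HFD and 121, 89.0, 91.5 and 101.1 FPKM on NCD (log2 difference −2.08 ± 0.17 (SE), adjusted p = 0.00014). For these 3 genes mice 156 and 157 lay close to the other HFD-fed mice, although they were the highest of them for Thbd. Fam13a, linked to adipocyte insulin sensitivity, was 3.77, 3.07, 2.30, 7.95 and 6.22 FPKM on HFD and 16.8, 19.3, 30.2 and 36.0 FPKM on NCD (log2 difference −2.27 ± 0.33 (SE), adjusted p = 0.000951), and Adgrg2, an adhesion receptor abundant in epididymis, was 1.62, 0.918, 0.651, 2.09 and 1.99 FPKM on HFD and 9.27, 18.9, 7.36 and 7.81 FPKM on NCD (log2 difference −2.22 ± 0.28 (SE), adjusted p = 0.000605). For Fam13a and Adgrg2, mice 156 and 157 were the HFD-fed mice nearest to NCD, and NCD mouse 179 was highest for Adgrg2. Adam7, the 1 of 14 listed epididymis genes that passed the filter, was at log2 levels of 2.21 and 3.77 in NCD 166 and 179 and was listed at 0 in the other 7 libraries, and the part of epididymal tissue in Adgrg2 was not tested.

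The response was next placed on 1 scale for each mouse. The position of a mouse is its projection on the line from the NCD mean (0) to the HFD mean (1) over all genes tested, with that mouse left out of its own group's mean. Mice 151, 152, 153, 156 and 157 lay at 1.02, 1.18, 1.202, 0.597 and 0.678, and the 4 NCD-fed mice between 0.007 and 0.108. Every HFD-fed mouse was thus separate from NCD, but mice 156 and 157 lay nearer to it than the other HFD-fed mice did. These positions describe the same genes that differ between the diets and carry no test. Without the genes of the immune lists they were 1.01, 1.16, 1.17, 0.596 and 0.696, and without the genes 20-fold higher in liver 1.04, 1.21, 1.23, 0.625 and 0.680. With each gene scaled to unit SD the range narrowed to 1.05, 0.951, 1.001, 0.660 and 0.797.

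**Figure D4:**
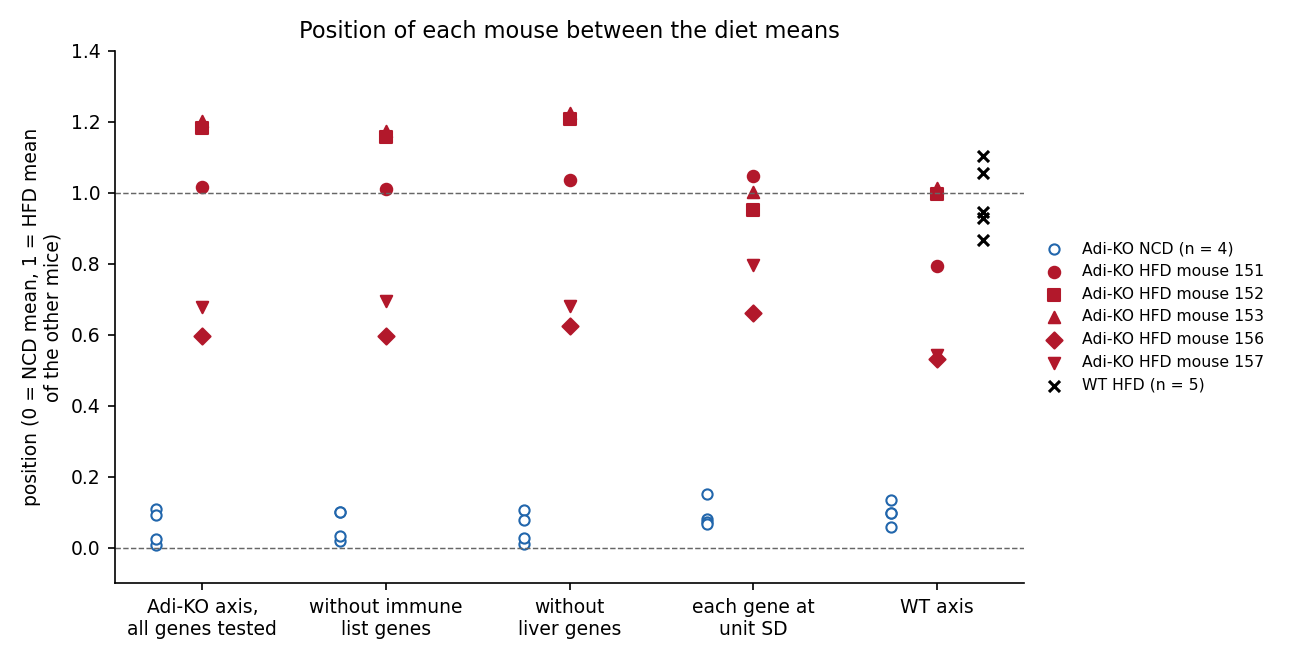
Position of each mouse between the NCD mean (0) and the HFD mean (1) of the other mice, for all genes tested, without immune list genes, without liver genes, with each gene at unit SD, and on the line drawn between the WT diet groups. Mice 156 and 157 lie between 0.532 and 0.797 in all 5 settings, below the other HFD-fed mice of either genotype.

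The first principal component of the 9 libraries took 59.1% of the variance and gave the same order, with 29.0, 42.6, 43.4, 5.001 and 9.65 for the HFD-fed mice and −34.5 to −29.1 for the NCD-fed mice. Of the 3272 genes higher on HFD, the lowest HFD-fed mouse was mouse 156 in 1304 (39.9%) and mouse 157 in 886 (27.1%), against 144 in mouse 151. Of the 2853 genes lower on HFD, the highest HFD-fed mouse was mouse 156 in 1110 (38.9%) and mouse 157 in 660 (23.1%). The SD between mice was larger on HFD than on NCD in 10155 of the 14026 genes (72.4%), with medians of 0.15 and 0.10 on the log2 scale.

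Gene lists did not share this order equally. The mean of the lipid-associated macrophage list lay 2.29, 2.77, 2.88, 1.503 and 1.21 above the NCD mean in the 5 HFD-fed mice, on the log2 scale, with no mouse inside the NCD range. The mature adipocyte list lay −0.29, −0.76, −0.79, −0.09 and 0.08 from NCD, with mice 156 and 157 inside the NCD range of −0.13 to 0.08. The nuclear oxidative phosphorylation list lay −0.02, −0.33, −0.23, 0.02 and 0.13 from NCD, with mice 152 and 153 below all other mice. The lipogenesis list, by contrast, was as low in mouse 156 as in the others, at −1.23, −1.14, −1.003, −1.06 and −0.56, with mouse 157 alone nearer to NCD. Insulin signaling (−0.38, −0.37, −0.34, −0.28 and −0.25), glucocorticoid (−0.48, −0.51, −0.43, −0.37 and −0.49) and ribosome lists differed less between the HFD-fed mice on the log2 scale. The insulin signaling list still kept the order, with mice 156 and 157 nearest to NCD. These lists were chosen with results of these libraries known, and the differences between lists were not tested.

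**Figure D5:**
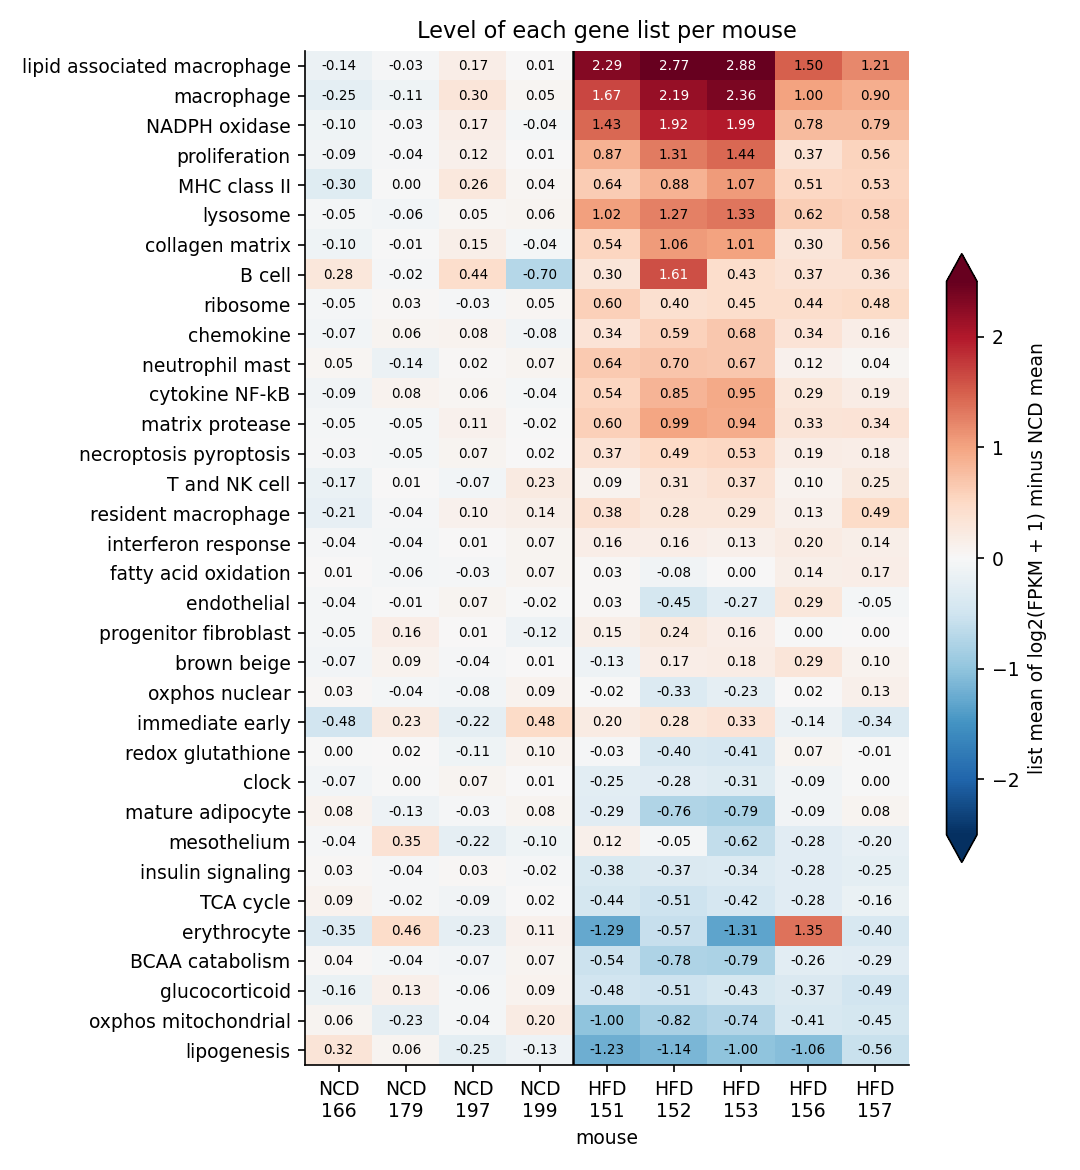
Mean log2(FPKM + 1) of each gene list in each mouse, minus the mean of the 4 NCD-fed mice, in colour and as a number. The macrophage and lipid-associated macrophage lists are highest in HFD mice 152 and 153, while lipogenesis, insulin signaling, glucocorticoid and ribosome lists differ from NCD in all 5 HFD-fed mice.

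The genes with the largest spread between HFD-fed mice were liver transcripts. All 10 genes with the largest SD on HFD are secreted or abundant liver proteins, highest in mouse 156. Albumin (Alb) was 1.34, 0.596, 0.591, 459.6 and 8.72 FPKM on HFD and 10.04, 8.25, 14.9 and 50.8 FPKM on NCD, a log2 SD of 3.47 on HFD. Apoa2 was 0.737, 0.612, 0.516, 241 and 6.49 FPKM on HFD and 0.511, 0.424, 7.28 and 16.6 FPKM on NCD, and the other 8 were Mup3, Apoa1, Ttr, Fabp1, Mup20, Mup7, Serpina3k and Gc. In mouse 156 these 10 genes stood at 0.793 to 2.01% of their FPKM in the liver library of the same mouse. Of the 572 genes at least 20-fold higher in liver, 324 were at 1 FPKM or more in mouse 156. The other HFD-fed mice held 74 to 92 of them at that level, and the NCD-fed mice 76 to 124. Globin and other erythrocyte transcripts summed to 3908.6 FPKM in mouse 156, and the erythrocyte list mean was 1.35 above NCD there and 0.40 to 1.31 below it in the other HFD-fed mice.

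With liver genes set aside, a step added after these values were seen, the largest spreads fell on Rnase2a, Cfd, Orm3, Spp1, Ccl21a, Cyp2e1, Atp6v0d2, Gpnmb, Tph2 and Hba-a2. Tph2, which encodes the neuronal enzyme of serotonin synthesis, was 7.32, 29.99, 27.8, 2.46 and 7.56 FPKM on HFD and 0.0954, 0.0904, 0.255 and 0.0839 FPKM on NCD (log2 difference 3.37 ± 0.59 (SE), adjusted p = 0.00229). Orm3, an acute phase protein, was 8.19, 2.23, 1.18, 18.6 and 19.3 FPKM on HFD and 25.1, 16.1, 16.9 and 25.4 FPKM on NCD, and its groups overlapped (log2 difference −1.49 ± 0.66 (SE), adjusted p = 0.0969). Rnase2a was 0.882, 3.06, 0.0803, 10.3 and 40.0 FPKM on HFD and 5.92, 0, 0.128 and 0.2001 FPKM on NCD (log2 difference 1.57 ± 1.05 (SE), adjusted p = 0.252), carried by mouse 157. The lymphoid chemokine Ccl21a was 12.97, 10.9, 17.9, 101.1 and 8.09 FPKM on HFD and 24.3, 98.2, 53.2 and 19.1 FPKM on NCD, highest in mouse 156 among the HFD group. Lymph node or vessel tissue in a fat sample can vary, and its part in Ccl21a was not tested.

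Without mouse 156, 3 named genes entered the called set (Alb, Orm3 and Ccl21a, all lower on HFD) and 10 left it, among them Cidec, Idh3a and mt-Nd1. The larger differences held in that setting, with the same direction and an adjusted p under 0.05 for all other named genes that passed the test with all mice. The positions of the other HFD-fed mice were taken with mouse 156 in the group mean, so the line itself contains its library.

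The WT mice served as a reference for this spread. The WT NCD group holds a pair of libraries that stand apart, mice 182 and 183, in which the 10 most abundant genes took 24.8 and 33.1% of the reads, against 14.6 and 17.7% in the other WT mice on NCD, and the library labelled WT NCD mouse 182 has a Mlkl level among those of Mlkl Adi-KO mice. On the line between the WT diet means, the 5 HFD-fed Mlkl Adi-KO mice lay at 0.794, 0.996, 1.01, 0.532 and 0.543, and the 5 HFD-fed WT mice between 0.867 and 1.10. The mean absolute deviation from the group median was 0.187 in Mlkl Adi-KO and 0.0727 in WT mice, a difference of 0.114 that did not pass a two-sided exact permutation test (p = 0.0952, n = 5 and 5, smallest possible p 0.00794). Without mice 182 and 183 the difference was 0.108 (exact permutation p = 0.103), and on the TPM scale 0.131 (exact permutation p = 0.0476). In mouse 183, seminal vesicle genes took 51.8% of all FPKM, so that TPM rescale this library more than the others. On the TPM scale the difference was 0.135 without mouse 183 and 0.1297 without mice 182 and 183 (exact permutation p = 0.0476 for both), alternatives added after the data were seen. The SD between HFD-fed mice was larger in the Mlkl Adi-KO group than in the WT group in 10100 of 14026 genes (72.0%), with medians of 0.15 and 0.11. Because genes vary together within a mouse, these 72.0% are not independent counts. Mouse 156, whose library holds liver transcripts, is included in the spread test and in these SDs, and its part in them was not tested.

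The SDs of single macrophage and adipocyte genes are given side by side. Gpnmb had a log2 SD of 1.34 on HFD in Mlkl Adi-KO mice, against 0.37 in the WT mice on HFD, whose levels were 179.7 to 338 FPKM. Trem2 had 1.15 and 0.38, with WT levels of 37.1 to 71.6 FPKM, Cfd 1.71 and 0.56, with WT levels of 204 to 589.9 FPKM, and Lep 0.35 and 0.09. Mest (0.18 and 0.29), Net1 (0.13 and 0.47) and Lyve1 (0.25 and 0.52) had the smaller SD in Mlkl Adi-KO mice. These SDs were not tested gene by gene. Gpnmb and Cfd are among the genes named above for the largest SDs in these same Mlkl Adi-KO mice. Their larger SD there follows in part from that choice and adds nothing to the spread test.

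Whether the diet difference itself depended on genotype was tested by the diet and genotype interaction in a fit of the 18 visWAT mice. No gene of 14136 passed (0%, limma with Benjamini-Hochberg adjustment), 1867 had an unadjusted p under 0.05 (13.2%), and DESeq2 on the recovered reads called 20. Tent5a, a cytoplasmic poly(A) polymerase, was 4.59, 5.20, 5.45, 4.001 and 3.95 FPKM on HFD and 6.26, 5.48, 6.27 and 6.05 FPKM on NCD in Mlkl Adi-KO mice. It fell in these (log2 difference −0.32 ± 0.09 (SE), adjusted p = 0.0183, up to 0.052 with NCD 166 or NCD 197 left out), while in WT mice it was 4.85 ± 0.789 FPKM on NCD and 7.26 ± 1.16 FPKM on HFD (SD, n = 4 and 5; log2 difference 0.50, and 0.51 without mice 182 and 183). The interaction for Tent5a was −0.82 ± 0.16 (SE; adjusted p = 0.308 by limma, and 0.00565 by DESeq2).

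The other 4 genes with the smallest interaction p values had no diet difference past the test in Mlkl Adi-KO mice and a rise in WT mice. Abcc3, an organic anion exporter, was 3.19 ± 0.328 FPKM on NCD and 3.91 ± 0.576 FPKM on HFD in Mlkl Adi-KO mice, against 1.66 ± 0.447 and 5.47 ± 0.871 FPKM in WT mice (SD, n = 4 and 5; interaction −1.06 ± 0.17 (SE), adjusted p = 0.105 by limma and 6.64e-05 by DESeq2). Resf1 gave an interaction of −0.98 ± 0.16 (adjusted p = 0.105), Pctp, a phosphatidylcholine transfer protein, −1.01 ± 0.18 (adjusted p = 0.207) and the transcription factor Maf −0.73 ± 0.15 (adjusted p = 0.314). None of these passed the adjusted limma test, so no gene is shown there to respond differently to the diet in the 2 genotypes.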

How the data were processed

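RNA of whole epididymal fat was sequenced from 1 library per mouse. The authors' reads were handled with fastp, HISAT2 and featureCounts (1.5.0-p3), as named in the study's methods or the submitters' notes. Strandedness, the annotation release and the treatment of multi-mapping reads are not given in the sources used here. The authors deposited FPKM for 56748 genes in every library, of which 959 share a symbol with another gene, and read counts only for the genes of their comparison tables. Those tables also hold the authors' log2 fold changes, p-values and pathway calls, which were not used. Whole reads were recovered from the deposited FPKM with the deposited counts and gene lengths (100% whole within 0.01 read), and no column of an unmatched sample was present.

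Genes with a mean of at least 0.5 FPKM were tested on log2(FPKM + 1) with limma 3.58.1 (R 4.3.3), trend and Benjamini-Hochberg adjustment, at a threshold of 0.05, after testing on simulated data. edgeR 4.0.16 and DESeq2 1.42.0 on the recovered reads, TPM, another pseudocount, other filters, array weights, 1 fit over the 4 visWAT groups and leaving out each mouse were alternatives. Tables were handled in Python 3.11.15 with numpy 2.4.6 and pandas 2.3.3. Promoters of 250 bases came from GRCm39 with GENCODE canonical transcripts. Members and gene lists were chosen with earlier results of these data known. Named genes were a core list of 51, the 10 largest rises and falls (called, at least 5 FPKM in a group, no overlap), the 10 largest SDs among HFD-fed mice, up to 3 rises and 3 falls of each of 36 lists, and the 5 smallest interaction p values (mean of at least 1 FPKM). Liver FPKM of the same mice were used only to define liver genes. Counting error is not separated from the spread between mice. A few items that these rules select are not reported here.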

Additional observations from a re-analysis of the deposited data

Results flagged for a closer look

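In groups of 4 or 5 mice, 1 mouse stood far from the others in 38 of 470 groups examined. The groups include genes named for their large spread among these same HFD-fed mice, so this count cannot be set against a chance rate. No cause was tested for any of these values. In HFD mouse 156, high values were found for the liver transcripts Alb (459.6 FPKM, others at most 8.72), Apoa2 (241 FPKM), Mup3 (152 FPKM), Apoa1 (131 FPKM), Ttr (98.2 FPKM), Fabp1 (83.8 FPKM), Mup20 (74.3 FPKM), Mup7 (59.8 FPKM), Serpina3k (75.5 FPKM) and Gc (54.0 FPKM). The same mouse was high for Ccl21a (101.1 FPKM), the globin gene Hba-a2 (272 FPKM) and Mmp9 (1.44 FPKM).

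Mouse 152 was high for Cd79a (5.64 FPKM) and for the mean of the B cell list (3.19 on the log2 scale). Mouse 157 was high for Acaca (12.5 FPKM) and Rnase2a (40.0 FPKM) and low for Il18 (2.11 FPKM).

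Among NCD-fed mice, mouse 197 was high for the seminal vesicle list (mean 4.10 on the log2 scale), Cd79a (1.13 FPKM), Atp6v0d2 (1.36 FPKM), Vsig8 (0.454 FPKM), Tph2 (0.255 FPKM), Il1rn (0.292 FPKM), Pycard (0.874 FPKM), Ncf4 (2.94 FPKM) and Rps27a (56.6 FPKM). Mouse 166 was high for Acaca (59.5 FPKM), Pparg (89.1 FPKM), Ccl7 (5.10 FPKM) and Rnase2a (5.92 FPKM). Mouse 179 was high for Adgrg2 (18.9 FPKM), Vsig4 (1.25 FPKM) and Rpl17 (67.6 FPKM) and low for Adrb3 (259 FPKM). Mouse 199 was high for Alb (50.8 FPKM), Acadl (102 FPKM) and Pctp (2.94 FPKM).

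The diet difference of Tent5a was −0.82 (log2) in Mlkl Adi-KO minus WT mice, with the mice of each genotype apart in opposite directions. Its interaction did not pass the adjusted test of limma and passed that of DESeq2.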

How the results depend on the processing

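The count of genes differing between the diets ranged from 4890 (without NCD 197) to 6346 (without HFD 156) with 1 mouse left out. With a difference of at least 2-fold required as well, 705 remained, 525 higher and 180 lower. TPM gave 2964 higher and 2770 lower, edgeR 3147 and 3147, and DESeq2 3578 and 3230. Of 198 named genes, 148 kept their direction and side of the threshold in every alternative and 50 did not in at least 1, and no named gene reversed a called direction. Of 864 list counts, 70 moved by over 1.5 times. The interaction count was 0 with limma and 20 with DESeq2, and 0 to 14 with 1 mouse left out (4 without HFD 153, 14 without WT NCD 165). The spread of HFD-fed mice, Mlkl Adi-KO minus WT, was 0.131 on the TPM scale, 0.135 on it without WT NCD 183 and 0.1297 without WT NCD 182 and 183 (exact permutation p = 0.0476 for each), and did not pass the threshold on the FPKM scale. The causes were not tested. Removing liver genes, and both WT NCD mice 182 and 183 from the axis and spread test, and WT NCD 183 on the TPM scale, were chosen after seeing the data. No paired analysis was possible because the diet groups are different mice that share no number.

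FPKM near 0 rest on few reads. Housing, dissection and hour of death were not given per mouse, and differences in them cannot be told apart from diet.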
